A study of Mus musculus with 3 samples.

Results

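Granzymes and cytotoxic granule genes were followed as 8 genes matched by symbol among 55357 gene rows: the granzymes Gzma, Gzmb, Gzmc, Gzmf and Gzmk, the pore-former Prf1, the granule membrane protein Nkg7 and the activating receptor Klrk1. The source was tumours formed in mice by 4T1 cells, an established line of mouse breast carcinoma. The sgCPT1A tumour carried a guide against Cpt1a, the carnitine palmitoyltransferase of fatty acid entry into mitochondria, and its genotype label reads as a knockdown. The sgVC tumour carried the control guide, with the genotype label WT. Both groups were female mice of 8 to 10 weeks, housed for 8 days as tumour bearers. With 1 library per group, no test between groups was possible, and every 95% interval covers counting error within a library only, since cells of a library are not replicates. The labels list 3 samples; the third, an additional sgCPT1A one, is not analysed here separately, and it is not known whether its reads were added to the sgCPT1A counts. The number of mice behind a library was not given in the sources used here.

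Cytotoxic lymphocytes kill by releasing granules onto a target. Perforin, from Prf1, opens the way into the target, and granzymes are serine proteases that cut proteins once inside. Granzyme A and granzyme B are the best studied. Granzyme C and granzyme F belong to a rodent group that is induced with strong activation, and granzyme K is typical of a memory-like CD8 T cell state. Nkg7 is needed for efficient granule release, and Klrk1 encodes NKG2D, which recognises stress-induced ligands on other cells and signals through the adaptor Hcst.

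Droplet sequencing of 3′ ends from the whole dissociated tumour gave 7198 barcodes and 35557125 UMIs (unique molecular identifiers, counted transcripts) in the sgCPT1A library, and 9890 barcodes and 155948212 UMIs in the sgVC library. After filtering, 6743 and 9319 cells were kept in those libraries. The libraries shared 18 barcodes. Tumour-like cells numbered 5 in sgCPT1A and 4443 in sgVC. These counts leave out an unnamed cluster of 145 sgCPT1A and 137 sgVC cells. That cluster met 8 of 8 tumour markers, but its top genes included Rgs5 and Des, listed as pericyte or smooth muscle markers. How many of its cells are tumour cells was not tested. In tumour-like cells Cpt1a had 1 UMI in sgCPT1A (8.82 CPM, the UMIs of a gene over all UMIs of the class, scaled as CPM, 95% interval 0.223 to 49.1). It had 2108 UMIs (17.4 CPM, 16.6 to 18.1) in sgVC. With so few sgCPT1A cells, Cpt1a checks neither the label nor the depletion. A 3′ tag can also lie outside the stretch a guide alters. Neutrophil-like cells made up 76.1% of kept sgCPT1A cells and 19.3% of kept sgVC cells. Ribosomal RNA also differed: Rn18s-rs5 took 43816 CPM of T-like cells in sgCPT1A and 16245 CPM in sgVC. The part of depth, RNA quality and free RNA in the results below was not tested beyond the values given with them.

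The T and NK cells formed 1 cluster, in which all 11 T cell markers were met, with 575 sgCPT1A and 935 sgVC cells. Within it, CD8 T cells had a Cd3 UMI, a Cd8a or Cd8b1 UMI and no Cd4 UMI, CD4 T cells had a Cd3 UMI, a Cd4 UMI and no Cd8 UMI, and NK cells had an Ncr1 or Klre1 UMI and none of Cd3, Cd4 or Cd8. This gave 68 CD8 T, 254 CD4 T and 22 NK cells in sgCPT1A, and 208 CD8 T, 284 CD4 T and 43 NK cells in sgVC. Median depth was 5133.5, 6135 and 4106 UMIs per cell in those sgCPT1A classes, against 3299.5, 3954.5 and 2686 UMIs in sgVC. Ncr1, which marks NK cells and some other innate lymphocytes, was seen in 90.9% of the sgCPT1A NK cells and 83.7% of the sgVC NK cells. Trac, the T cell receptor alpha constant gene, was seen in 0 of the 22 sgCPT1A cells and in 4.65% of the 43 sgVC cells, and Cd5 had 0 UMIs in both. Trbc1 was nevertheless seen in 86.4% and 74.4% of them and Cd28 in 63.6% and 44.2%, in sgCPT1A and sgVC in that order. The gate is therefore named by its rule, and T cells without a Cd3 UMI or other innate lymphocytes within it cannot be told apart from NK cells.

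The genes lie on mouse chromosomes 6, 7, 10, 13 and 14 (GRCm38, annotation release GENCODE M21). Gzmb (56258838 to 56262260), Gzmc (56231441 to 56234656) and Gzmf (56205263 to 56211417), all on the minus strand, belong to a run of 7 granzyme genes spanning 144635 bases of chromosome 14, with Gzmd, Gzme, Gzmg and Gzmn beside them. Gzma (113093825 to 113100981, minus strand) and Gzmk (113171608 to 113225908, minus strand) are on chromosome 13, Prf1 (61297833 to 61304680, plus strand) on chromosome 10, Nkg7 (43437073 to 43438249, plus strand) on chromosome 7 and Klrk1 (129610323 to 129623864, minus strand) on chromosome 6. All are protein-coding. Because the assay reads 3′ ends, the last 500 transcribed bases were compared. Those of Gzmf were 88.4% identical to Gzmg and 84.1% to Gzmd, with shared runs of 72 and 71 bases, so reads of Gzmf, Gzmd, Gzme, Gzmg and Gzmn can be split among or lost between them and their separate counts are uncertain. Gzmc shared at most 18 bases in a row with Gzmf, and Gzmb at most 10 with any other granzyme. Gzmf overlaps the antisense gene Gm4022 and Gzmk overlaps Esm1 on the opposite strand. Whether the counting used strand was not given in the sources used here, which leaves those counts uncertain.

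The promoters of Gzmb, Gzmc and Gzmf are shown because these 3 neighbours had the largest ratios between the libraries among members tested in NK cells and, as described below, did not move together in single cells. Each runs from 250 bases before to 50 after the annotated start (RefSeq, GRCm38.p6), read 5′ to 3′ on the minus strand, at chr14:56262285-56262584 for Gzmb, chr14:56234608-56234907 for Gzmc and chr14:56211358-56211657 for Gzmf. Capitals mark matches on either strand to TGACGTCA (the cyclic AMP response element), TGANTCA (AP-1), TGTGGTT (RUNX), AGGTGTGA (T-box) or CAGGAAG (ETS), and no matches overlap in these 3 sequences.
Gzmb: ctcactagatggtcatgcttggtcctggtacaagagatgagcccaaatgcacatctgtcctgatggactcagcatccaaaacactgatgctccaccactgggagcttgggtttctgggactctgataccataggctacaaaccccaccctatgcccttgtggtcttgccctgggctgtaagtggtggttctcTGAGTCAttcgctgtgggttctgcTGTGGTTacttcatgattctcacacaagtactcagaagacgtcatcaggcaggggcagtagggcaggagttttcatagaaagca
Gzmc: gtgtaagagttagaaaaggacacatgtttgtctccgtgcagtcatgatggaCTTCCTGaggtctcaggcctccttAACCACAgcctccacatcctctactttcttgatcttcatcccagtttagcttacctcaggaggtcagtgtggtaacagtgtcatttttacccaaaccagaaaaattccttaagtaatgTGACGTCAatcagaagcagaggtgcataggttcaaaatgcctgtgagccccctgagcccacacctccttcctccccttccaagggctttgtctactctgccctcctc
Gzmf: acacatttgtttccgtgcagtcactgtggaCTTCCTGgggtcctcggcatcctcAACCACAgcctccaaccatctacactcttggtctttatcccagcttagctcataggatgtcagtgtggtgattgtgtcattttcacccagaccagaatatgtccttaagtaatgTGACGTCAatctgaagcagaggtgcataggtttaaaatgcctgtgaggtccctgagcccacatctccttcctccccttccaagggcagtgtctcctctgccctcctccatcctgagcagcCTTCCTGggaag
The Gzmc and Gzmf promoters were 74.9% identical, with a longest shared run of 24 bases, whereas Gzmb was 46.5% identical to Gzmc and 50.2% to Gzmf. TGACGTCA was in Gzmc and Gzmf only, among the 8 genes, and in 1.79% of all 32851 promoters of that length. TGTGGTT was in 5 of the 8 (Gzma, Gzmb, Gzmc, Gzmf and Klrk1) and in 5.27% of all promoters. TGANTCA was in Gzmb and Klrk1 (7.81% of all), CAGGAAG in Gzmc, Gzmf, Nkg7 and Prf1 (13.3%), and AGGTGTGA in Nkg7 (1.28%). A match is a description of letters, not of a bound site.

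Across cell classes, granule genes were far higher in CD8 T than in CD4 T cells. All 8 members were at least 2-fold higher in CD8 T over CD4 T cells in sgCPT1A (3.94% of all 7791 genes with at least 20 UMIs were) and 0 at least 2-fold lower (9.46%), with a median log2 ratio of 5.01 beside −0.09 over all genes. In sgVC 6 of 7 members tested were at least 2-fold higher (3.61% of 7682 genes) and 1, Gzmc, was at least 2-fold lower (7.90%). In sgVC CD4 T cells 147 of the 175 Gzmc UMIs were in 1 cell, and without the highest cell of each class Gzmc stood at 10.6 CPM in CD8 T and 17.9 CPM in CD4 T cells (log2 ratio −0.75, −2.02 to 0.37). Gzma stood at 4609.5 CPM in CD8 T and 13.98 CPM in CD4 T cells of sgCPT1A, and at 4919 CPM in CD8 T and 29.8 CPM in CD4 T cells of sgVC. Gzmk had the same order, at 358 against 7.25 CPM in sgCPT1A and 517 against 10.8 CPM in sgVC. Nkg7 and Klrk1 were less steep, with CD8 T over CD4 T log2 ratios of 2.25 (2.10 to 2.40) and 2.15 (1.83 to 2.48) in sgCPT1A, and 2.14 (2.01 to 2.27) and 1.89 (1.52 to 2.27) in sgVC.

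Between NK and CD8 T cells, Prf1 and Gzmk differed at least 2-fold in the same direction in both libraries. Prf1 was higher in NK than in CD8 T cells in both libraries, at 919 against 189 CPM in sgCPT1A (log2 ratio 2.28, 1.89 to 2.68) and 1807 against 91.8 CPM in sgVC (4.30, 3.96 to 4.66). Gzmc was likewise higher in NK cells, at 1726 against 31.2 CPM in sgCPT1A and 13772 against 13.9 CPM in sgVC. In sgCPT1A that rests on 1 NK cell with 213 of the 216 UMIs: without the highest cell of each class 3 UMIs (26.5 CPM) remained in NK and 11 UMIs (20.3 CPM) in CD8 T cells, and Gzmc was seen in 2 of 22 NK cells (9.09%) and 8 of 68 CD8 T cells (11.8%). Gzmk was lower in NK cells: 0 UMIs were seen in the 22 sgCPT1A NK cells against 358 CPM in CD8 T cells, and 51.0 CPM in sgVC NK against 517 CPM in CD8 T cells. For Nkg7 and Klrk1 in sgCPT1A, the NK over CD8 T log2 ratios had intervals that include 0, at −0.01 (−0.24 to 0.21) and −0.10 (−0.64 to 0.42). In sgVC both were lower in NK cells, at −0.22 (−0.36 to −0.08) and −0.59 (−1.10 to −0.11). At least 2-fold higher in NK cells were 2 of 8 members in sgCPT1A (10.3% of 4107 genes) and 4 of 8 in sgVC (5.98% of 5586), and at least 2-fold lower were 2 of 8 (12.9%) and 1 of 8 (16.1%) in those libraries. In sgVC 2 of the 4 rest on 4 NK cells rich in granzymes, described below. Without them Gzmb stood at 2008 CPM in NK and 3983 CPM in CD8 T cells (log2 ratio −0.99, −1.16 to −0.82) and Gzmf at 0 UMIs in both, which leaves 2 members at least 2-fold higher (8.91% of 5274 genes) and 1 lower (12.0%). Nkg7 and Klrk1 in sgVC then stood at −0.43 (−0.64 to −0.23) and 0.19 (−0.36 to 0.71).

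**Figure D1:**
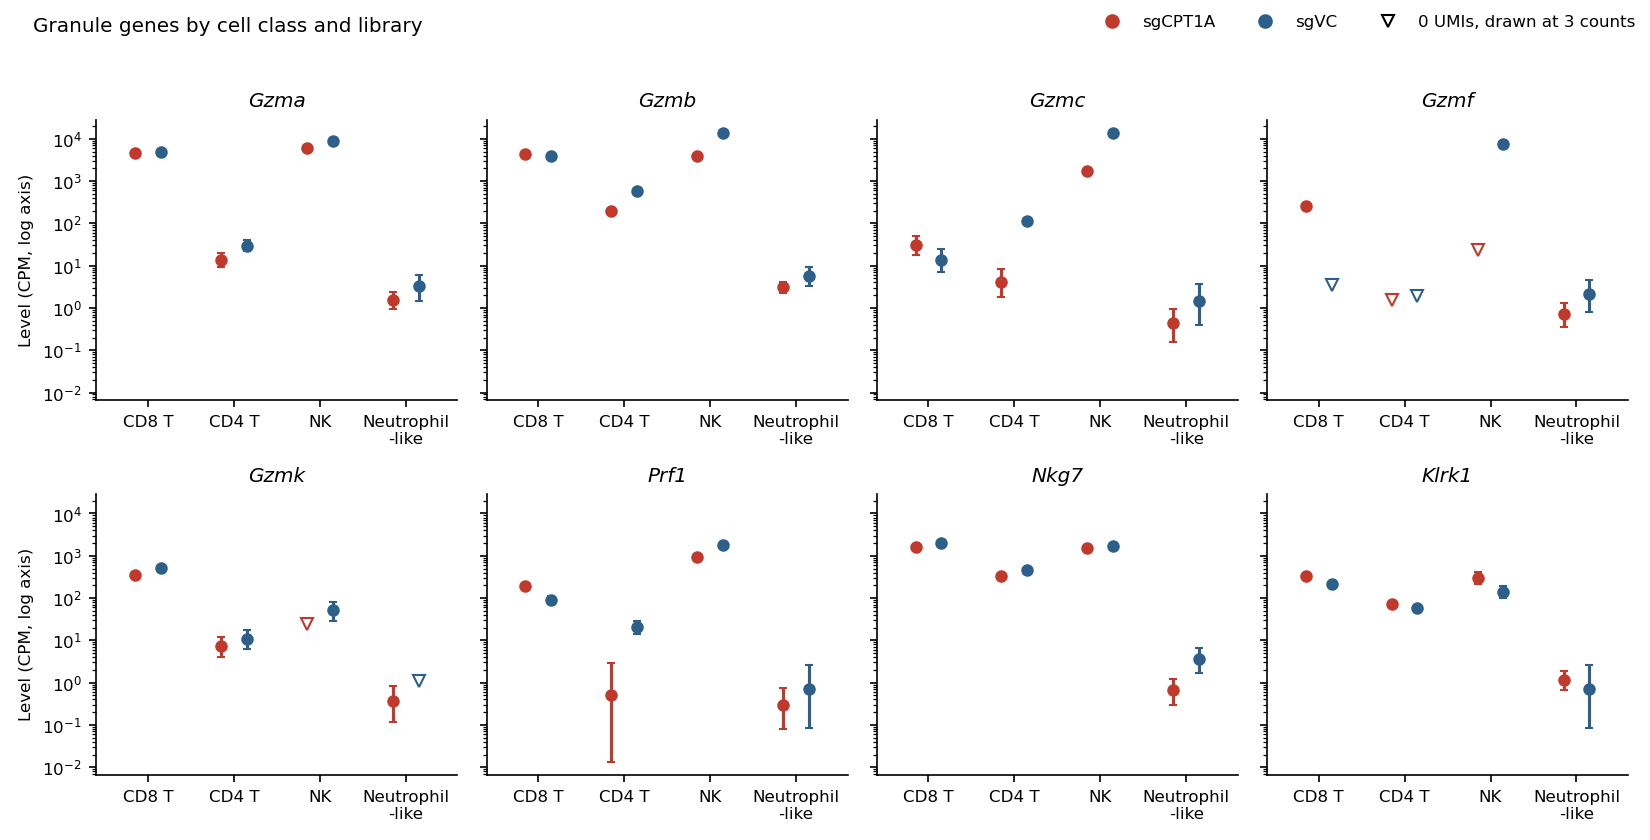
Level of each gene in CPM (log axis) in CD8 T, CD4 T, NK and neutrophil-like cells, sgCPT1A (red) left of sgVC (blue), with exact Poisson 95% intervals for counting error; open triangles mark 0 UMIs, drawn at 3 counts. The neutrophil-like levels run from 0 to 5.74 CPM, and Gzmb, Gzmc and Gzmf are higher in sgVC NK cells.

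In neutrophil-like cells, which should lack these genes and so show the level of free RNA, 0.701% or less of cells had a UMI of any one member in sgCPT1A and 0.445% or less in sgVC, at median depths of 2630 and 1462.5 UMIs. Every share quoted for a lymphocyte class below is above this unless stated. Some lymphocyte values were not above the neutrophil-like level in CPM: Gzmf had 0 UMIs in CD4 T cells of both libraries, sgVC CD8 T cells and sgCPT1A NK cells, Gzmk had 0 UMIs in sgCPT1A NK cells, and Prf1 in sgCPT1A CD4 T cells (0.518 CPM, 0.0131 to 2.89) overlapped the neutrophil-like 0.291 CPM (0.0792 to 0.745).

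Summed over CD8 T cells, Gzma and Gzmb stood at similar levels in both libraries. Gzma had 4609.5 CPM (4431 to 4793; 2513 UMIs) in sgCPT1A and 4919 CPM (4772 to 5069; 4235 UMIs) in sgVC CD8 T cells, a log2 ratio of −0.09 (−0.17 to −0.02). Gzmb had 4254 CPM (4082 to 4430; 2319 UMIs) in sgCPT1A and 3983 CPM (3851 to 4118; 3429 UMIs) in sgVC, a log2 ratio of 0.09 (0.02 to 0.17). These small ratios turn sign with the setting: Gzma stood at 0.07 with cells gated without clusters and Gzmb at −0.02 without the highest cell of each library. Gzmb was detected in 82.4% of sgCPT1A cells (71.2 to 90.5%) and 86.5% of sgVC cells (81.1 to 90.9%), and Gzma in 61.8% (49.2 to 73.3%) and 62.5% (55.5 to 69.1%). The highest cell in each library held 18.0% (sgCPT1A) and 10.5% (sgVC) of the Gzmb UMIs, and the 7 highest of 68 sgCPT1A and 21 highest of 208 sgVC cells held 75.1% and 73.8% of those of Gzma, so much of the summed level came from few cells. In CD8 T cells without an Mki67 or Top2a UMI, Gzmb stood at 5820 CPM (50 sgCPT1A cells) and 3756 CPM (155 sgVC cells), while in those with one, dividing cells, it stood at 2418 CPM (18 sgCPT1A cells) and 4387 CPM (53 sgVC cells). Cells with such a UMI were deeper, at a median of 9399.5 UMIs against 4957 in sgCPT1A and 4983 against 2980 in sgVC. The part of depth in this split was not tested.

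Prf1 and Klrk1 were higher in sgCPT1A CD8 T cells, and Gzmk and Nkg7 lower. Prf1 had 189 CPM (154 to 229; 103 UMIs) in sgCPT1A and 91.8 CPM (72.6 to 114; 79 UMIs) in sgVC, a log2 ratio of 1.04 (0.60 to 1.48). It was detected in 51.5% of sgCPT1A (39.0 to 63.8%) and 23.6% of sgVC CD8 T cells (18.0 to 29.9%). With each cell thinned to 1000 UMIs those shares were 14.9% (7.40 to 25.7%) and 8.96% (5.39 to 13.8%), intervals that overlap. Klrk1 had 325 CPM (279 to 376) in sgCPT1A and 211 CPM (182 to 244) in sgVC, a log2 ratio of 0.62 (0.31 to 0.93). With cells thinned to 1000 UMIs the Klrk1 ratio was 0.23, below that interval. Gzmk had 358 CPM (309 to 412) in sgCPT1A and 517 CPM (470 to 567) in sgVC, a log2 ratio of −0.53 (−0.78 to −0.29), and Nkg7 had 1581 CPM (1477 to 1690) and 1979 CPM (1886 to 2075), a log2 ratio of −0.32 (−0.44 to −0.20).

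Gzmc and Gzmf were rare in CD8 T cells. Gzmc had 17 UMIs in 8 sgCPT1A cells and 12 UMIs in 8 sgVC cells, a log2 ratio of 1.16 (0.01 to 2.36). Gzmf had 139 UMIs in 3 sgCPT1A cells, 107 of them in 1 cell, and 0 UMIs in sgVC. Set against a floor of 3 counts over the sgVC class, it was 73.2-fold higher, with a lower interval bound of 5.88 on the log2 scale. Without that 1 cell the value at the same floor was 4.15 on the log2 scale. Gzmg, with a 3′ end 88.4% identical, went the other way, at 8 UMIs in sgCPT1A and 151 in sgVC, so Gzmf holds only as counted. Counted together, 3 of the 8 members were at least 2-fold higher in sgCPT1A (Gzmc, Gzmf and Prf1; 4.81% of 6117 genes were) and 0 at least 2-fold lower (5.08%). Gzmc stood under 2-fold with at most 10% mitochondrial UMIs (0.59), with at least 2 marker UMIs (0.50) and without the highest cell of each library (0.94), and Prf1 with cells thinned to 1000 UMIs (0.70). The median log2 ratio was 0.36 over the 8 members and −0.05 over all genes tested.

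CD8 T cells that also held an Ncr1 or Klre1 UMI numbered 22 of 68 in sgCPT1A (32.4%, 21.5 to 44.8%) and 16 of 208 in sgVC (7.69%, 4.46 to 12.2%). Thinned to 1000 UMIs per cell the shares were 7.46% (2.47 to 16.6%) and 1.99% (0.545 to 5.02%). In these cells Gzmb stood at 6970.5 CPM in sgCPT1A and 5691 CPM in sgVC, and Prf1 at 234 and 65.7 CPM. Gzmb-positive CD8 T cells held Prf1 more often in sgCPT1A (58.9%, 45.0 to 71.9%) than in sgVC (26.1%, 19.9 to 33.2%), also when thinned to 2000 UMIs (36.4%, 22.4 to 52.2%, and 15.4%, 9.90 to 22.4%). Most CD8 T cells of both libraries held Gzmb, so these shares largely repeat those of Prf1 over all CD8 T cells. Neutrophil markers summed to 1519 CPM in sgCPT1A and 522 CPM in sgVC CD8 T cells, with 0 of 9 markers at 0 in both, and their part in these values was not tested.

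**Figure D2:**
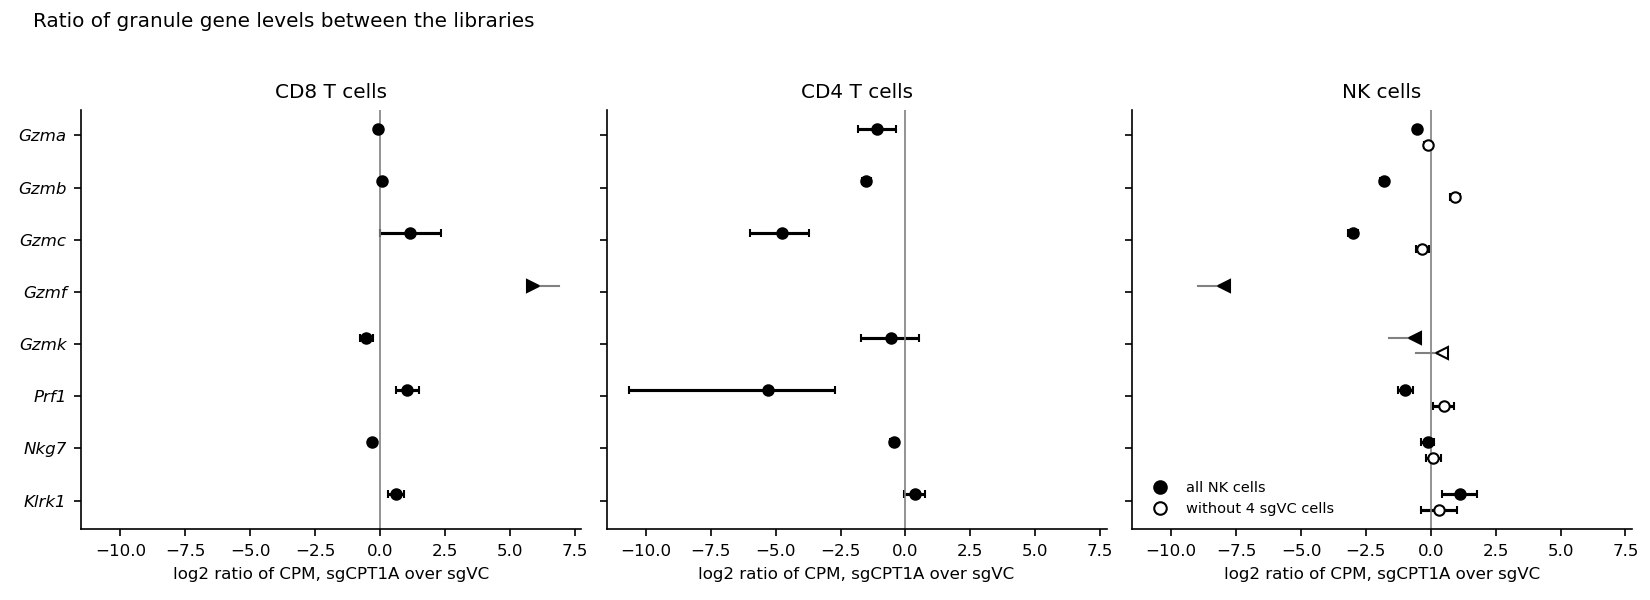
log2 ratio of CPM, sgCPT1A over sgVC, for each gene in CD8 T, CD4 T and NK cells, with exact conditional binomial 95% intervals; arrowheads mark the bound where 1 library had 0 UMIs. Open points in the NK panel leave out 4 sgVC cells, after which Gzmb lies at 0.93 in place of −1.82.

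In CD4 T cells 4 members, Gzma, Gzmb, Gzmc and Prf1, were at least 2-fold lower in sgCPT1A, and the other members were not. Gzmb had 201 CPM (181 to 222; 388 UMIs) in sgCPT1A and 572 CPM (535 to 610; 902 UMIs) in sgVC, a log2 ratio of −1.51 (−1.68 to −1.34). It was seen in 18.1% of sgCPT1A cells (13.6 to 23.4%) and 34.9% of sgVC cells (29.3 to 40.7%), and, thinned to 1000 UMIs, in 9.06% (5.83 to 13.3%) and 21.1% (16.4 to 26.3%), intervals that do not overlap. Prf1 had 1 UMI in sgCPT1A and 32 UMIs, in 10 cells, in sgVC, a log2 ratio of −5.29 (−10.64 to −2.71). Gzma had 27 and 47 UMIs, with 5 cells holding all 47 in sgVC, a log2 ratio of −1.09 (−1.83 to −0.38) that was −0.74 without the highest cell of each library and turned to 3.72 when at least 2 UMIs of the class markers were asked for. Gzmc had 8 UMIs in sgCPT1A and 175 in sgVC, a log2 ratio of −4.74, but 147 of the 175 were in 1 cell, and without the highest cell of each library the ratio was −2.76. Nkg7 stood at 331 and 449 CPM in sgCPT1A and sgVC (log2 ratio −0.44, −0.60 to −0.28), Klrk1 at 73.0 and 57.1 CPM (0.36, −0.04 to 0.75), Gzmk at 7.25 and 10.8 CPM (−0.57, −1.70 to 0.54), and Gzmf had 0 UMIs in both libraries. Of 7 members tested, 4 were at least 2-fold lower in sgCPT1A (5.94% of 8647 genes were) and 0 at least 2-fold higher (6.11%), with a median of −1.09 beside −0.02 over all genes. Neutrophil markers summed to 1228 CPM in sgCPT1A and 349 CPM in sgVC CD4 T cells, and their part was not tested.

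CD4 T cells with a Foxp3 UMI, regulatory T-like cells, held Gzmb more often than other CD4 T cells: 61.5% of 13 sgCPT1A cells and 70.8% of 24 sgVC cells had a UMI, against 15.8% and 31.5% of CD4 T cells without Foxp3 in those libraries. The Foxp3 cells were deeper, at a median of 9565 UMIs against 6016 in sgCPT1A and 4595 against 3907.5 in sgVC. These shares are unthinned, and the part of depth in them was not tested. Prf1 had 0 UMIs in the Foxp3 cells of both libraries. It was rare in CD4 T cells as a whole, with 1 UMI in 254 sgCPT1A and 32 UMIs in 284 sgVC cells, so this 0 does not set the Foxp3 cells apart.

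In CPM, the largest differences between the libraries were in NK cells, where the sgVC levels of Gzmb, Gzmc and Gzmf rested mostly on 4 cells. Gzmb had 3828 CPM (3493 to 4186; 479 UMIs) in sgCPT1A and 13482 CPM (13078 to 13894; 4230 UMIs) in sgVC NK cells, a log2 ratio of −1.82 (−1.96 to −1.68). Gzmc had 1726 CPM (216 UMIs, 213 of them in 1 cell) in sgCPT1A and 13772 CPM (4321 UMIs) in sgVC, a log2 ratio of −3.00 (−3.20 to −2.80). Without the highest cell of each library the Gzmc ratio was −8.70, on 3 UMIs in sgCPT1A and 2840 in sgVC. Gzma had 6193 CPM and 8959 CPM, a log2 ratio of −0.53 (−0.65 to −0.42), and Prf1 had 919 CPM and 1807 CPM, −0.98 (−1.28 to −0.68), in sgCPT1A and sgVC. As a mean of per-cell CPM, each cell weighted equally, the Prf1 ratio was 0.30. Klrk1 had 304 and 140 CPM in those libraries (1.11, 0.45 to 1.77, but −0.21 with cells thinned to 1000 UMIs), and Nkg7 1566 and 1702 CPM (−0.12, −0.36 to 0.12). Gzmf had 0 UMIs in sgCPT1A and 2310 in sgVC, of which 2302 were in 1 cell. Of 7 members tested, 3 were at least 2-fold lower in sgCPT1A (10.8% of 2932 genes were) and 1, Klrk1, at least 2-fold higher (16.5%), with a median of −0.98 beside 0.17 over all genes. Neutrophil markers summed to 495 CPM in sgCPT1A and 121 CPM in sgVC NK cells, with 3 and 4 of 9 at 0, and their part was not tested.

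Without 4 sgVC NK cells described next, a choice made after their values were seen, Gzmb was higher in sgCPT1A, at 3828 CPM against 2008 CPM (log2 ratio 0.93, 0.72 to 1.14), and so was Prf1, at 919 against 654 CPM (0.49, 0.09 to 0.89). Gzma was then at 6193 against 6696 CPM (−0.11, −0.25 to 0.02) and Gzmc at 1726 against 2178 CPM (−0.34, −0.59 to −0.08), where 213 of the 216 sgCPT1A UMIs were in 1 cell. Klrk1 was then at 304 against 242 CPM (0.33, −0.36 to 1.02) and Nkg7 at 1566 against 1465 CPM (0.10, −0.19 to 0.38). No member tested was then at least 2-fold higher (6.65% of 2180 genes were) or lower (7.48%). For Gzmb, 1 cell held 46.6% of the sgCPT1A NK UMIs, and leaving out the highest remaining cell of each library as well gave 2265 CPM in sgCPT1A and 1442 CPM in sgVC (0.65, 0.38 to 0.92). For Gzmc that step left 3 UMIs (26.5 CPM) in sgCPT1A and 142 UMIs (994 CPM) in sgVC (−5.23, −7.52 to −3.65). In sgCPT1A NK cells, Gzma was seen in 63.6% (40.7 to 82.8%) and in sgVC NK cells in 86.0% (72.1 to 94.7%), and Gzmb in 63.6% and 67.4%.

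The 4 cells are part of a set of 7 sgVC cells in which the 10 granzyme genes took 10% or more of all UMIs, from 14.9% to 32.1%. They were 7 of 935 T-like sgVC cells (0.749%, 0.302 to 1.54%), 4 in the NK class and 3 with neither a complete T nor an NK gate. None of the 575 T-like sgCPT1A cells passed 10%, which allows a share of up to 0.522% by the floor of 3 counts (exact interval 0 to 0.639%); the highest had 5.93%, and the next sgVC cell had 6.88%. The 7 cells had 9664 to 56700 UMIs each, well above the class medians. The 4 NK cells had 33182 to 56700 each, out of the 313760 UMIs by which CPM in the sgVC NK class is scaled. In the first cell, of 56700 UMIs, Gzmg had 7721 UMIs, Gzmd 5066, Gzmb 2147, Gzmc 1481 and Gzme 1408, with 245 of Prf1 and 1 of Gzmf. The fifth, of 34934 UMIs, had 2302 of Gzmf and 2396 of Gzmg. Gzmf ran from 1 to 2302 UMIs over the 7 cells, being 1, 6 and 1 in 3 of the NK cells and 712 or more in the others, while Gzmc ran from 138 to 1481. So Gzmc and Gzmf, whose promoters were the most alike among the members, did not keep 1 ratio. Given its uncertain 3′ end, this holds for Gzmf only as counted. The promoters of Gzmd, Gzme, Gzmg and Gzmn were not compared, and a link between promoter likeness and level was not tested.

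These 7 cells held 85.4% of the Gzmc, 99.7% of the Gzmf, 99.01% of the Gzmg and 63.1% of the Prf1 UMIs of all T-like sgVC cells, but 27.2% of those of Gzma. Trac, Cd8a and Cd4 were at 0 UMIs in all 7. Cd3g had 20 UMIs in the second and 6 in the fourth. Trdc, the T cell receptor delta constant gene, had 13 UMIs in the seventh, an NK-class cell, and 0 in the others. The fourth had 13 UMIs of S100a9 and 2 of S100a8, neutrophil genes, and the others at most 2 of either. No sgCPT1A cell being seen is a statement about 575 cells in 1 library, and neither doublets nor depth was tested as a source of the 7.

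**Figure D3:**
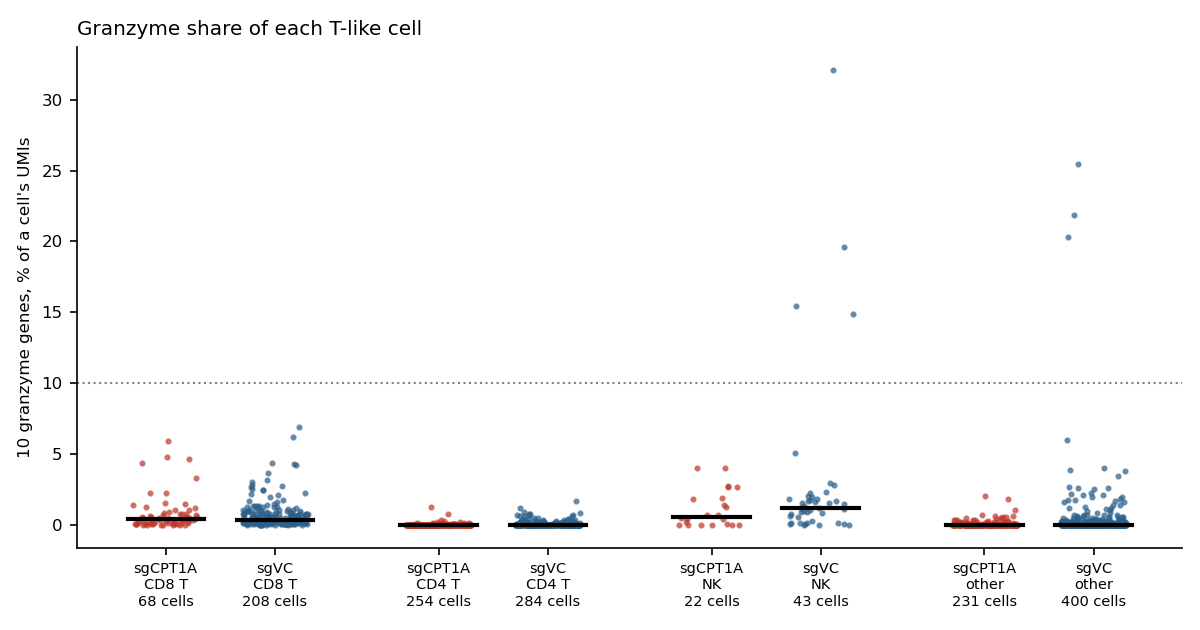
Share of each T-like cell's UMIs taken by 10 granzyme genes, by class and library, sgCPT1A left of sgVC; bars are medians and the dotted line is 10%. The 7 sgVC cells above the line run from 14.9% to 32.1%, and the highest sgCPT1A cell is at 5.93%.

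**Figure D4:**
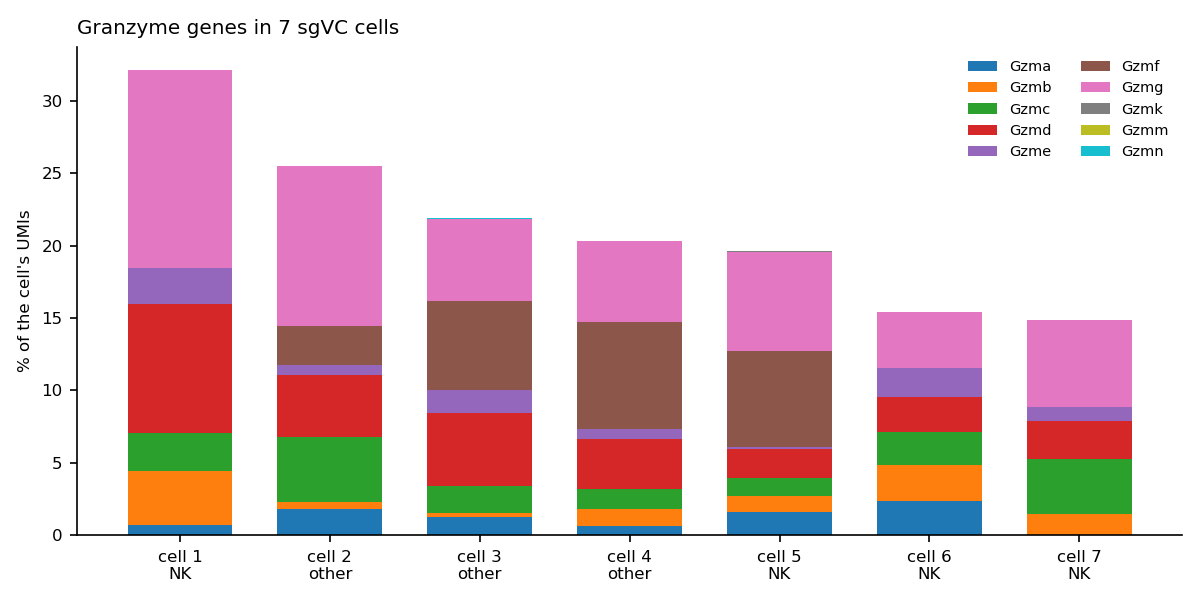
Composition of the granzyme share, as percent of the cell's UMIs, in the 7 sgVC cells, with the class of each under its bar. Gzmg is in all 7, and Gzmf takes visible shares in 4.

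Some members were also read outside the T-like cells. Klrk1 was in 42.7% of dendritic-like cells in sgCPT1A (32.7 to 53.2%; 96 cells) and in 48.2% in sgVC (42.0 to 54.5%; 257 cells), at 82.3 CPM and 129 CPM. Nkg7 had 1 UMI in the dendritic-like cells of each library and Ncr1 0, so these cells do not carry the rest of the set. Dendritic-like cells with Ccr7 had Klrk1 at 106 CPM (76.3 to 144) in sgCPT1A and 152 CPM (128 to 179) in sgVC. Those without Ccr7 had 65.0 CPM (45.3 to 90.4) and 110 CPM (91.7 to 131), and the intervals overlap in each library. Cells with Cd209a stood at 119 and 136 CPM, and those with Siglech at 90.3 and 175 CPM, in sgCPT1A and sgVC. Those with Xcr1 or Clec9a stood at 29.2 and 82.3 CPM. Monocyte/macrophage-like cells had a Klrk1 UMI in 10.5% (7.08 to 14.8%) and 12.1% (10.3 to 13.9%), above the neutrophil-like 0.292% and 0.111%. Gzmb was in 55.6% of 9 basophil or mast-like sgCPT1A cells (21.2 to 86.3%) and 36.7% of 30 sgVC cells (19.9 to 56.1%), at 807 CPM (470 to 1292) and 1097 CPM (841 to 1406), with Nkg7 at 0 UMIs. Of the fibroblast-like cells, 2 in sgCPT1A held 319 and 310 granzyme UMIs together with Cd3 and Cd8 UMIs, and sgCPT1A had no doublets removed.

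**Figure D5:**
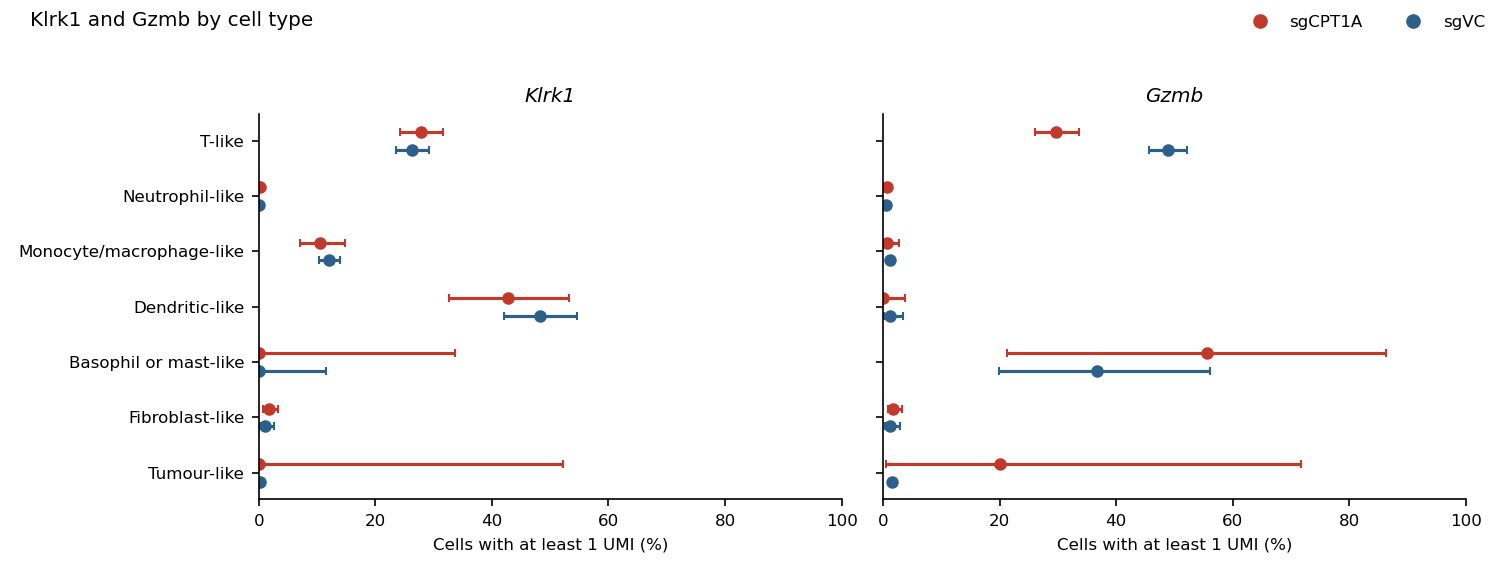
Share of cells with at least 1 UMI of Klrk1 (left) or Gzmb (right) by cell type, sgCPT1A (red) above sgVC (blue), with exact binomial 95% intervals. Dendritic-like cells stand at 42.7% and 48.2% for Klrk1, and basophil or mast-like cells at 55.6% and 36.7% for Gzmb.

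Klrk1 ligands were measured alongside. H60b, a stress-induced NKG2D ligand, was at 141 CPM in sgCPT1A and 45.3 CPM in sgVC CD8 T cells (log2 ratio 1.64, 1.07 to 2.24). Raet1e, Ulbp1 and H60b stood at 15.7, 16.5 and 25.8 CPM in sgVC tumour-like cells, while the 5 sgCPT1A tumour-like cells gave 1, 1 and 3 UMIs, too few for a comparison.

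The genes around the members in the killing pathway, in 11 groups, were compared in the same way. In CD8 T cells 1 of 7 granule matrix and processing genes was at least 2-fold lower in sgCPT1A: Ctsc, the protease that activates granzymes, at 29.3 CPM in sgCPT1A and 73.2 CPM in sgVC (log2 ratio −1.32, −2.21 to −0.51). Srgn, the proteoglycan that packs granules, stood at 1766 CPM in sgCPT1A and 1864 CPM in sgVC. The median log2 ratio of that group was −0.08. Of 2 other granzymes tested 1 was lower, Gzmg, at 14.7 CPM in sgCPT1A and 175 CPM in sgVC (−3.58, −4.82 to −2.56). Of the sgVC UMIs of Gzmg 105 of 151 were in 1 cell, and without the highest cell of each library it stood at 1.85 CPM (1 UMI) in sgCPT1A and 54.3 CPM in sgVC (−4.88, −10.21 to −2.33). Of 8 granule exocytosis genes 1 was lower, Ap3b1 (−1.17, −2.42 to −0.07), and 0 of 3 granzyme inhibitors passed 2-fold. Of 10 NKG2D adaptors and other cytotoxic receptors 3 were at least 2-fold higher, among them Cd226, an activating receptor (1.00, 0.52 to 1.49), while the intervals of the others, Tyrobp and Cd244a, include 0, and 1 was lower, Slamf7 (−1.09, −1.80 to −0.43). Hcst, through which NKG2D signals, was at 460 CPM in sgCPT1A and 436 CPM in sgVC.

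Of 5 genes linked to exhaustion tested in CD8 T cells, 3 were at least 2-fold higher. Among them were the inhibitory receptors Lag3, at 2.21 (1.27 to 3.24), and Havcr2, which encodes TIM-3, at 1.60 (1.02 to 2.21). Entpd1, which encodes the enzyme CD39, stood at 1.37 (0.62 to 2.15) on the log2 scale, which is also the group's median. The other 2, Ctla4 and Pdcd1, have the highest levels of the group and were not at least 2-fold higher. Of 8 other effector genes 2 were higher, the chemokines Ccl3 (2.36, 2.02 to 2.72) and Xcl1, while Ccl5 stood at 4266.5 CPM in sgCPT1A and 7491 CPM in sgVC (−0.81, −0.88 to −0.74). Of 9 transcription factors 2 were higher, Zeb2 (1.73, 0.91 to 2.60) and Irf4, and Tbx21, which encodes T-bet, stood at 0.95 (0.41 to 1.51). Of 6 resting or memory genes 1 was higher, Ccr7 (1.40, 0.29 to 2.56), and 0 of 4 proliferation genes passed 2-fold. These counts stand beside 4.81% higher and 5.08% lower of all genes. Genes with few UMIs (Ap3b1, Tyrobp, Cd244a, Xcl1, Irf4, Entpd1, Ccr7) were named after their values were seen, as were those below for CD4 T and NK cells.

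In CD4 T cells 1 of 9 receptors and adaptors was at least 2-fold higher in sgCPT1A, Hcst, at 501 CPM in sgCPT1A and 239.6 CPM in sgVC (1.06, 0.89 to 1.24). Of 6 genes linked to exhaustion 1 was higher, Lag3 (1.56, 0.99 to 2.16). Of 8 other effector genes 1 was higher, Ccl3 (1.25, 1.05 to 1.46), and 3 were lower: Ccl5 (−1.38, −1.59 to −1.16), Tnfsf10, which encodes TRAIL (−1.14, −1.70 to −0.61), and Xcl1, with 1 UMI in sgCPT1A and 59 UMIs in sgVC. Of 8 transcription factors 2 were higher, Prdm1 (1.12, 0.66 to 1.60) and Irf4 (1.24, 0.77 to 1.74), as were 1 of 8 exocytosis genes, Lyst (1.63, 1.07 to 2.23), 1 of 7 resting or memory genes, Tcf7 (1.23, 0.71 to 1.78), and 1 of 2 NKG2D ligands, H60b (1.17, 0.75 to 1.59). Of 4 proliferation genes 1 was lower, Birc5 (−1.76, −2.01 to −1.51), and 0 of 7 granule matrix and processing genes and 0 of 3 granzyme inhibitors passed 2-fold. Of all genes in CD4 T cells 6.11% were higher and 5.94% lower, and with groups this small a count of 1 does not set a group apart from them.

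In NK cells 4 of 4 other granzymes tested were at least 2-fold lower in sgCPT1A, as were 4 of 4 proliferation genes and 2 of 4 granzyme inhibitors, while 5 of 7 other effector genes were at least 2-fold higher, among them Ifng (1.01, 0.60 to 1.42), Tnf (1.96, 1.37 to 2.55) and Ccl3 (3.33, 2.88 to 3.79). Of 10 receptors and adaptors 1 was higher, Cd226 (2.33, 1.16 to 3.58), and 4 were lower. Of all genes in NK cells 16.5% were higher and 10.8% lower. Without the 4 granzyme-rich sgVC cells, 1 of 7 other effector genes was higher (6.65% of 2180 genes were), 0 of 6 receptors and adaptors were lower (7.48%), and 4 of 4 proliferation genes, 2 of 3 granzyme inhibitors and 2 of 2 other granzymes tested were lower. Ccl3 then stood at 2.29 (1.84 to 2.76), Ccl5 at 0.22 (0.09 to 0.35) and Mki67, a proliferation marker, at −3.03 (−5.39 to −1.35). Gzmd and Gzme stood at −1.38 and −2.99.

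By Pearson correlation of log2(CPM + 10) over 22 cluster-by-library units, among 14707 genes, Prf1 was most like Klrg1, Ncr1 and Cd160 (r of 0.998 each), Gzmc most like Ccl1, Il2 and Gzmd, Gzmk most like Sh2d1a and Trdc, and Klrk1 most like Gpr171, P2ry10 and Cd48 (r of 0.967, 0.964 and 0.963). The units share libraries and the 2 T-like units carry most of the contrast, so these are descriptions only.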

How the data were processed

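Whole tumours were dissociated and sequenced by 10x 3′ single-cell RNA sequencing. The deposited files hold raw UMI counts per gene and barcode, made with Cell Ranger 7.1.0 per the file headers and the genome build GRCm38 per the submitters' processing notes, which also name Seurat 4.1.0. No source used here gives the strand setting.

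Barcodes under 200 genes or over 20% mitochondrial UMIs were dropped. Scrublet marked 291 sgVC cells (3.03%), which were left out, and 1 sgCPT1A cell (0.0148%), read as a failed call and kept. Both libraries were clustered together in scanpy 1.11.5 (Python 3.11.15) without integration (2000 variable genes, 30 components, 15 neighbours, Leiden resolution 1), with the granule genes left out of the variable genes. Counts were summed by class and given as CPM with exact Poisson intervals, shares with Clopper-Pearson intervals, and ratios with exact conditional binomial intervals, all at 95%. A gene was compared if it had at least 20 UMIs, and a 2-fold difference was counted as higher or lower. A class at 0 UMIs was set to a floor of 3 counts. Shares were repeated with cells thinned to 1000 or 2000 UMIs. The interval functions were tested on simulated data.

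The 8 genes, the gene lists, the cell type markers and the rule for named genes (from each list, the 2 highest genes and the 2 with the largest ratio in CD8 T cells, from 50 UMIs, and the 3 genes most correlated with each member) were chosen with earlier results of these data known. Alternatives covered filters, doublets, clustering, gates, depth, scaling, free RNA and single cells.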

Additional observations from a re-analysis of the deposited data

Results flagged for a closer look

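For 4 of the 8 genes, the log2 ratio of sgCPT1A over sgVC ran in opposite directions between lymphocyte classes. The difference between classes was not tested, since each group had 1 library. Gzmb stood at 0.095 in CD8 T cells, −1.51 in CD4 T cells and −1.82 in NK cells. Its CD8 T ratio was −0.02 without the highest cell of each library, so that direction is not settled. Gzmc stood at 1.16 in CD8 T cells, on 17 sgCPT1A and 12 sgVC UMIs, and at −4.74 in CD4 T cells and −3.00 in NK cells. Its CD4 T ratio was −2.76 without the highest cell of each library. Its NK ratio was −0.34 without the 4 granzyme-rich sgVC cells, and −5.23 without the highest remaining cell of each library as well. Gzmf, set against the floor of 3 counts, stood at 6.19 in CD8 T cells and −8.26 in NK cells, and 1 cell held most UMIs in each. Prf1 stood at 1.04 in CD8 T cells, −5.29 in CD4 T cells, on 1 sgCPT1A UMI, and −0.98 in NK cells. Without the 4 granzyme-rich sgVC cells, Gzmb and Prf1 in NK cells stood at 0.93 and 0.49.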

How the results depend on the processing

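The median log2 ratio over the granule genes in CD8 T cells stayed between 0.01 and 0.49 over 17 alternatives, beside 0.36. The 0.01 was with cells thinned to 1000 UMIs, which left 6 members in the median. In CD4 T cells (−1.09) it kept its sign in 17 of 17, with −0.29 when cells were thinned to 1000 UMIs and −1.76 as a mean of per-cell CPM. That thinned median rests on 3 members in place of 7, with Gzmb at −1.93, Nkg7 at −0.29 and Klrk1 at 0.69, so it is not a median of the same genes. In NK cells (−0.98) it was −1.55 when Cd3 UMIs were not barred, −0.30 with thinned cells, −0.15 as a mean of per-cell CPM, −0.61 without the highest cell of each gene, and 0.21 without cells of 10% or more granzyme UMIs, an alternative chosen after seeing the data. Among ratios of 2-fold or more, the direction turned for Gzma in CD4 T cells with at least 2 marker UMIs (3.72), for Gzmb in NK cells without the granzyme-rich cells (0.93, or 0.65 without the next highest cells too), for Klrk1 in NK cells when thinned (−0.21), and for Gzmb in NK over CD8 T cells of sgVC without the granzyme-rich cells (−0.99, or −1.33). Among smaller ratios it turned for Prf1 in NK cells (0.49 without the granzyme-rich cells, 0.30 as a mean of per-cell CPM), Nkg7 in NK cells (0.097 without those cells, 0.014 with at least 2 marker UMIs), Gzmk and Nkg7 in CD4 T cells gated without clusters (0.098 and 0.016), Gzma in CD8 T cells (0.069 gated so, 0.028 as a per-cell mean) and Gzmb in CD8 T cells without the highest cells (−0.020); the cause was not tested except that those granzyme-rich cells hold 92.7% of the Gzmb UMIs of sgVC NK cells. Klrk1 in NK over CD8 T cells of sgVC also turned, from −0.59 to 0.19 without the granzyme-rich cells.

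The number of genes past 2-fold depends on the UMI minimum, fewer genes being tested at 50 UMIs and more at 1. At minimums of 50, 20 and 1 UMIs, CD8 T cells gave 114, 294 and 2523 genes higher and 71, 311 and 2812 lower. CD4 T cells gave 222, 528 and 3568 higher and 293, 514 and 2502 lower, and NK cells gave 147, 483 and 3619 higher and 129, 317 and 3068 lower. The median difference in detection shares in CD8 T cells was −1.99 points thinned to 1000 UMIs, 0.24 at 2000 and 3.86 unthinned, so it has no settled sign.

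No paired analysis was possible because each group has 1 library, so leaving out a replicate leaves no comparison. The NK class has 22 sgCPT1A and 43 sgVC cells, and Gzmc in CD8 T cells has 17 and 12 UMIs in those libraries, which limits counting precision. The settings that leave out single cells between classes were chosen after seeing the data.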
